A study of Mus musculus with 12 samples.

Results

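Posterior and anterior epiblast of control mouse embryos at E7.75 were compared on 6 Illumina bead arrays, 3 of each region, out of 12 arrays in the series. A probe entered the comparison when 3 or more of these 6 arrays gave it a detection p-value below 0.05, as did 19251 of 46237 probes. Of these, 14806 carried 1 gene name, and with the brightest probe kept for each gene they gave 10396 genes. The 4 groups of the series, each with 3 arrays, are Dkk-/- posterior, Dkk-/- anterior, Dkk+/+ posterior and Dkk+/+ anterior epiblast. The Dkk-/- arrays are those labelled knockout here and the Dkk+/+ arrays are the control, and the gene is Dkk1 by the sample codes. The sources used here do not give the strain background, the number of embryos behind each array or whether both regions of an embryo share a replicate number. The p-values therefore measure the spread among these arrays alone, and how much of it is technical was not tested. Xist, described below, differed widely between arrays of one region.

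At this stage the epiblast is being patterned along the axis that runs from head to tail. Cells at the posterior end pass through the primitive streak and form mesoderm and endoderm, and Wnt, FGF and Nodal signals made there maintain the process. The streak and the tissue around it also switch on the Cdx and Hox genes, which give positions along the trunk their identity. At the anterior end, secreted antagonists of Wnt, Nodal and BMP made by the underlying endoderm and axial mesoderm shield the future brain from those signals. Dkk1 is one of these antagonists and blocks the Wnt co-receptors Lrp5 and Lrp6. The comparison asks which genes mark each end of the axis when Dkk1 is intact.

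Levels below are log2 normalized intensities, and a change is the posterior mean minus the anterior mean on that scale with its standard error (SE). A gene rose or fell in posterior epiblast where limma's Benjamini-Hochberg adjusted p was under 0.05. Where no array of one region detected the gene, the difference is given as a lower bound on the fold, computed with the undetected arrays raised to the lowest signal detected on each. The adjusted p beside a bound comes from the limma fit to the values before that raise, so it does not test the bound. A gene with a bound entered the comparison through the arrays of the other region alone. The mean raw intensity of the arrays lay between 384.4 and 585.8 in posterior and between 417.6 and 692.9 in anterior arrays. Between 40.68% and 42.3% of probes were detected on posterior arrays, and between 39.4% and 42.03% on anterior arrays. Arrays of one region correlated at 0.9859 or more with each other and at 0.9819 or less with arrays of the other region. The median SD between arrays was 0.159 in posterior and 0.175 in anterior epiblast, and the number of arrays limits the precision.

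Of the 10396 genes, 721 (6.94%) passed the threshold. In posterior epiblast 376 rose (3.62%) and 345 fell (3.32%), and 2155 genes had an unadjusted p under 0.05. The median change of all genes was 0.01. The arrays of both regions did not overlap for 2843 genes (27.3%), and these included all 721. Large differences lay mostly on the posterior side: 171 genes rose by more than 1 and 103 fell by more than 1, while 51 rose by more than 2 and 17 fell by more than 2. For 49 of the genes that rose no anterior array detected the probe, and for 32 of those that fell no posterior array did. The count of genes past the threshold was 468 without posterior array 1, 454 without posterior array 2 and 473 without anterior array 2.

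**Figure D1:**
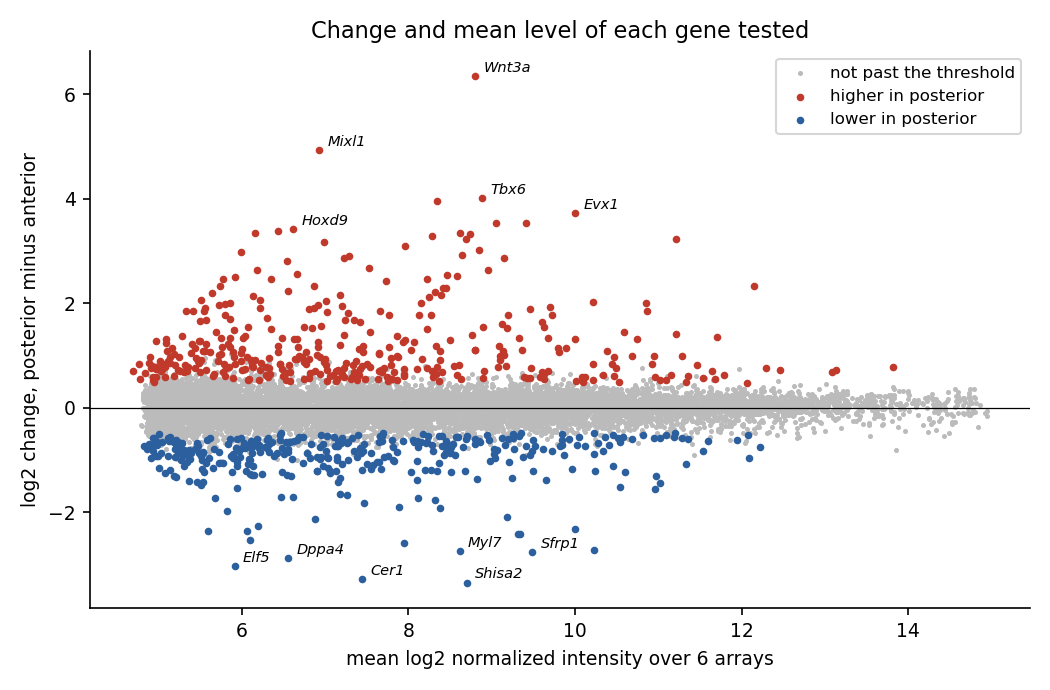
Each point is 1 of 10396 genes, with its mean log2 normalized intensity over the 6 control arrays on the x axis and its log2 change, posterior minus anterior, on the y axis. The 376 genes higher in posterior (red) reach a change of 6.35 at Wnt3a, and the 345 lower in posterior (blue) reach -3.34 at Shisa2.

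Several of the genes that rose are known to respond to Wnt signalling, to T-box factors or to Cdx factors, so the region around their transcription start is shown for 4 of them. The sequences are RefSeq promoters of build GRCm38.p6, from 250 bases before to 50 bases after the start, written 5′ to 3′ on the strand of the gene. Capitals mark the letters CTTTGA (a TCF/LEF core), GGTGTGA (a T-box site) or TTTATGG (a Cdx/Hox-type site), on either strand. Sp5, a zinc-finger gene that Wnt signalling activates directly, is at chr2:70474673-70474972 (plus strand) and holds 2 TCF/LEF cores. Mesp1, a bHLH factor of nascent mesoderm, is at chr7:79793541-79793840 (minus strand) with 2 TCF/LEF cores and 1 T-box site. Hoxd4 is at chr2:74721728-74722027 (plus strand) with 2 Cdx/Hox-type sites, and Wnt3a, which had the largest change, is at chr11:59290702-59291001 (minus strand) and holds none of these letters. The 4 were chosen with their changes known and do not stand for the genes that rose. Axin2, Cdx2, Cdx4 and Dll1, which also rose, hold none of these letters in the same window. Dkk1, which fell, holds 2 TCF/LEF cores.
Sp5: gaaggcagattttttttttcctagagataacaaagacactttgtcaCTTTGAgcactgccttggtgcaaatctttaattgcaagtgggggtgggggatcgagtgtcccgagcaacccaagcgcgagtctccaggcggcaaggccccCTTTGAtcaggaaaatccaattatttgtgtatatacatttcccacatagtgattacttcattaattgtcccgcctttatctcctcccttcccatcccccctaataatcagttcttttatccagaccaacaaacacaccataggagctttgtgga
Mesp1: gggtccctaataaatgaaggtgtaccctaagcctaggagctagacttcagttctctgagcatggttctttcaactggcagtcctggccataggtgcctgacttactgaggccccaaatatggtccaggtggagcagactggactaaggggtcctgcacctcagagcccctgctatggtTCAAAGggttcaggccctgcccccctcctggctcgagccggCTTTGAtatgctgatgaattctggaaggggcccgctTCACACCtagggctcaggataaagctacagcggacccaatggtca
Hoxd4: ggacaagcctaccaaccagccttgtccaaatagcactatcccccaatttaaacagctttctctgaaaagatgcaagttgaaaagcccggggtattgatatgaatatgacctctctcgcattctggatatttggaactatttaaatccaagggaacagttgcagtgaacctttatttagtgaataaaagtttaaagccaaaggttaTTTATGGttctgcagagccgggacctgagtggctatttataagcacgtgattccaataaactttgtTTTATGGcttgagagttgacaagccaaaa
Wnt3a: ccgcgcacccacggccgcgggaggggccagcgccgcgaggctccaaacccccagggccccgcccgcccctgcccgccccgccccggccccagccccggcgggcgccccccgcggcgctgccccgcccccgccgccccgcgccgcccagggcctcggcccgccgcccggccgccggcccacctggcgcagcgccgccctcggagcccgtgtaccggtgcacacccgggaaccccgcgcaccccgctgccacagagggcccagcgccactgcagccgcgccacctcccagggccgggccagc

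The same letters were counted in the 300 bases of 7982 tested genes, with 1 RefSeq promoter per gene and the genes of 1 chromosome left out. The TCF/LEF core was found in 33 of 275 genes that rose (12%), 23 of 246 genes that fell (9.35%) and 964 of all 7982 genes (12.1%). The T-box site was found in 15 of the genes that rose (5.45%), 10 of those that fell (4.07%) and 252 of all genes (3.16%). The Cdx/Hox-type site was found in 4 of the genes that rose (1.45%), 6 of those that fell (2.44%) and 120 of all genes (1.5%). Of 31 genes that rose by more than 2, 2 held the TCF/LEF core (6.45%), 2 the T-box site (6.45%) and 1 the Cdx/Hox-type site (3.23%). A match is a description of the letters and not a bound site, and matches of different motifs were counted separately.

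Wnt ligands were mostly higher in posterior epiblast, and 1 of them, Wnt3a, had the largest change of any gene. Of 23 genes listed, 10 were tested: 7 rose, 1 fell and 2 missed the threshold, with a median change of 1.52 against 0.01 for all genes. Another 10 had a named probe but were not detected on 3 arrays, and a ligand that is on in 1 region can enter through that region alone. Over all settings the median of the list lay between 0.17 and 2.2. Wnt3a, a ligand required for posterior mesoderm, had 11.89, 11.97 and 12.05 in posterior arrays, against 5.13, 5.69 and 6.05 in anterior arrays. Its change of 6.35 (SE 0.21, adjusted p = 7.75e-07) was the largest of the comparison and corresponds to 81.5-fold. Wnt8a, a ligand of the posterior epiblast and mesoderm, had 10.39, 10.22 and 10.32 in posterior arrays, against 6.57, 7.48 and 7.18 in anterior arrays, a change of 3.23 (SE 0.21, adjusted p = 2.41e-05). The regions did not overlap for either gene, and the 3 anterior arrays varied more among themselves than the 3 posterior ones.

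Wnt5b and Wnt5a, ligands best known for signalling without beta-catenin, rose by 2.86 (SE 0.21, adjusted p = 3.97e-05) and 2.52 (SE 0.12, adjusted p = 5.31e-06). Rspo3, a secreted enhancer of Wnt reception, rose by 1.88 (SE 0.12), and Wnt6 by 1.05 (SE 0.14). Wnt2 rose by 1.17 (SE 0.29, adjusted p = 0.0466), and this call was lost without posterior array 1, 2 or 3 or anterior array 1 or 2 (changes between 0.81 and 1.36, adjusted p between 0.0556 and 0.151). Wnt7b, a ligand of the trophoblast side of the conceptus, was the ligand that fell: it had 4.57, 4.85 and 5.07 in posterior arrays, with 1 of 3 detecting it, against 7.51, 7.77 and 6.80 in anterior arrays (change -2.53, SE 0.24, adjusted p = 0.000262). Wnt4 (-0.36, adjusted p = 0.424) and Rspo1 (-0.02, adjusted p = 0.96) did not pass. Wnt3, another ligand of the streak, was not detected on 3 of the 6 arrays.

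Wnt receptors were divided between the regions. Of 13 tested, 2 rose, 3 fell and 8 missed the threshold (median -0.08). Fzd10, a Frizzled receptor, had 10.32, 10.27 and 10.62 in posterior arrays, against 6.99, 7.27 and 7.0 in anterior arrays, and rose by 3.32 (SE 0.15, adjusted p = 3.21e-06). Ror2, a receptor for Wnt5a, rose by 1.08 (SE 0.19, adjusted p = 0.00923). Fzd5, a Frizzled of the anterior neural plate and eye field, went the other way with 8.23, 8.26 and 7.92 in posterior arrays, against 10.85, 10.47 and 10.32 in anterior arrays (change -2.41, SE 0.17, adjusted p = 3.52e-05). Its other probe changed by only -0.98. Fzd7 fell by 1.22 (adjusted p = 0.00075) and Fzd2 by 0.84 (adjusted p = 0.0116). The co-receptors Lrp5 and Lrp6 changed by -0.08 (adjusted p = 0.883) and 0.19 (adjusted p = 0.717), and neither passed.

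Genes known to be activated by Wnt/beta-catenin signalling were mostly higher in posterior epiblast. Of 27 listed, 21 were tested: 16 rose, 2 fell and 3 were not past the threshold (median 2.00). Axin2, a feedback inhibitor and a general readout of the pathway, had 10.64, 10.66 and 10.57 in posterior arrays, against 8.88, 8.82 and 8.83 in anterior arrays, a change of 1.78 (SE 0.12, adjusted p = 2.29e-05). Sp5, whose promoter is printed above, had 11.80, 11.84 and 11.89 in posterior arrays, against 9.81, 9.76 and 9.98 in anterior arrays, a change of 2.00 (SE 0.12, adjusted p = 1.76e-05). For both genes the spread within a region was small beside the gap between regions. Lef1, a transcription factor of the pathway, rose by 1.52 (SE 0.16, adjusted p = 0.000396) and the zinc-finger gene Sp8 by 1.37 (SE 0.19, adjusted p = 0.00215). The targets that fell were Dkk1 and Cyp26a1, described below. The lists overlap, and Cdx1, Cdx2, Cdx4, Evx1 and Wnt3a count among both the Wnt targets and the caudal genes. The members of all lists were chosen with earlier results of these data known, so their counts are a description and not a test. Ccnd1 (0.32, adjusted p = 0.201), Myc (0.25, adjusted p = 0.401) and Lgr5 (-0.59, adjusted p = 0.359) did not pass.

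Antagonists of Wnt signalling were found at both ends. Of 15 tested, 6 rose, 4 fell and 5 missed the threshold (median -0.02). Notum, an enzyme that removes the lipid from Wnt proteins, had 7.61, 8.22 and 8.02 in posterior arrays, against 5.20, 5.16 and 5.07 in anterior arrays, and rose by 2.81 (SE 0.17, adjusted p = 1.47e-05). Frzb, a secreted Frizzled-related protein, rose by 1.83 (SE 0.14) and the intracellular inhibitor Nkd2 by 1.18 (SE 0.17). Dkk4, a relative of Dkk1, was detected on every posterior array (5.81, 6.14 and 6.81) and on no anterior array (4.36, 4.37 and 4.5), and was at least 2.39-fold higher (adjusted p = 0.00121). The other genes that rose were Draxin (0.98) and Apcdd1 (0.60), both secreted or membrane inhibitors.

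The 4 antagonists that fell included 2 of the 3 largest falls of the comparison. Shisa2, which holds Wnt and FGF receptors inside the cell, had 7.02, 7.23 and 6.84 in posterior arrays, against 10.58, 10.23 and 10.32 in anterior arrays (change -3.34, SE 0.15, adjusted p = 3.22e-06), although its other probe changed by -1.61. Cer1, a secreted antagonist of Nodal, BMP and Wnt, had 6.15, 5.43 and 5.84 in posterior arrays, against 9.04, 9.12 and 9.08 in anterior arrays (change -3.27, SE 0.18, adjusted p = 9.75e-06). Sfrp1, a secreted Frizzled-related protein, had 8.06, 7.84 and 8.43 in posterior arrays, against 10.87, 10.86 and 10.89 in anterior arrays (change -2.76, SE 0.16, adjusted p = 1.45e-05). In each of these genes the lowest anterior array lay above the highest posterior array by more than 2. Dkk1, the gene the genotype labels refer to, had 5.22, 5.30 and 4.74 in posterior arrays, with 2 of 3 detecting it, against 6.36, 6.02 and 6.32 in anterior arrays. Its change was -1.14 (SE 0.18, adjusted p = 0.00447). Sfrp2 (-0.61, adjusted p = 0.057), Dkk3 (0.33, adjusted p = 0.277), Kremen1, Kremen2 and Tmem88 did not pass.

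**Figure D2:**
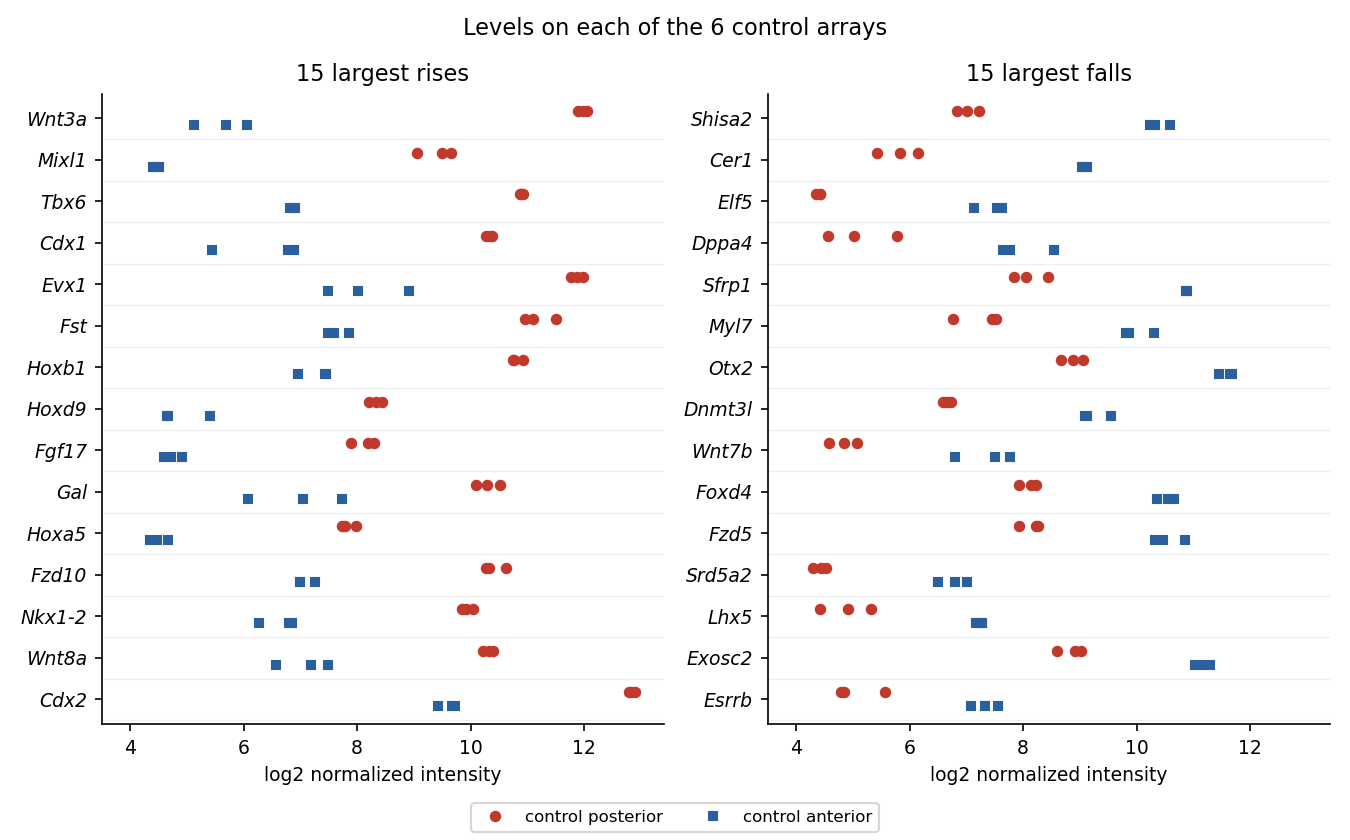
Log2 normalized intensity (x axis) of the 15 genes with the largest rise and the 15 with the largest fall in posterior epiblast, among genes past the threshold that all arrays of the higher region detected. Each red circle is a control posterior array and each blue square a control anterior array, and the regions do not overlap in any of the 30 rows. Cdx1, Evx1 and Gal show wider spread among anterior than among posterior arrays.

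Primitive streak and mesendoderm genes were led by factors of nascent mesoderm, and the genes of the list that fell were Gsc and Cyp26a1. Of 26 listed, 20 were tested: 13 rose, 2 fell and 5 were not past the threshold (median 0.96). Mixl1, a homeobox gene of the streak, was detected on every posterior array (9.49, 9.05 and 9.66) and on no anterior array (4.51, 4.48 and 4.41), and was at least 21.1-fold higher (adjusted p = 7.75e-07). Evx1, an even-skipped type homeobox gene of the posterior streak, had 11.86, 11.98 and 11.77 in posterior arrays, against 8.91, 8.01 and 7.49 in anterior arrays (change 3.73, SE 0.30, adjusted p = 8.41e-05). Fst, the activin-binding protein follistatin, had 11.51, 11.10 and 10.96 in posterior arrays, against 7.48, 7.86 and 7.59 in anterior arrays (change 3.55, SE 0.17, adjusted p = 5.31e-06).

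Mesp1, whose promoter is printed above, had 11.37, 11.14 and 11.18 in posterior arrays and was still bright in anterior arrays (9.56, 8.98 and 9.06), a change of 2.03 (SE 0.17, adjusted p = 0.000119). Lefty2, a Nodal antagonist of nascent mesoderm, rose by 2.92 but varied within regions, with 10.80, 9.77 and 9.73 in posterior arrays, against 7.93, 7.34 and 6.29 in anterior arrays (SE 0.41, adjusted p = 0.00261). Snai1, a repressor of epithelial genes, rose by 0.99 (SE 0.18), Nodal by 0.93 (SE 0.15; its other probe by 0.29) and the membrane protein gene Ifitm1 by 0.69 (SE 0.15). Ifitm1 lost its call without posterior array 1 or 3 or anterior array 1 or 2 (adjusted p between 0.067 and 0.0856). Eomes, a T-box factor of the early streak and of trophoblast, had 7.38, 6.58 and 6.37 in posterior arrays, against 6.73, 6.53 and 6.09 in anterior arrays, and the regions overlapped (change 0.33, adjusted p = 0.541). Lhx1 (0.20), Foxa2 (-0.45), Aplnr (0.53) and Ifitm3 (0.29) did not pass either. The brachyury gene T and the Nodal co-receptor Tdgf1 carried no name in the probe tables and were not analysed here.

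Caudal genes were higher in posterior epiblast. Of 11 tested, 9 rose and none fell, with a median of 3.22 (3.13 with Fgf17 at its bound). Cdx2, a caudal-type homeobox factor, had 12.78, 12.83 and 12.89 in posterior arrays, against 9.42, 9.67 and 9.73 in anterior arrays (change 3.22, SE 0.13, adjusted p = 3e-06). Cdx1 had 10.34, 10.37 and 10.27 in posterior arrays, against 5.45, 6.78 and 6.90 in anterior arrays (change 3.95, SE 0.33, adjusted p = 0.000101), and its other probe rose by 5.31. Cdx4 rose by 2.63 (SE 0.25, adjusted p = 0.000227), with 1 of 3 anterior arrays detecting it. All 3 Cdx genes were thus higher on every posterior array than on any anterior array. Nkx1-2, a homeobox gene of the caudal epiblast that holds neuromesodermal progenitors, rose by 3.30 (SE 0.17, adjusted p = 7.12e-06) and the RNA-binding protein gene Grsf1 by 1.36 (SE 0.12). Sall4 (-0.44, adjusted p = 0.0642) and Lin28a (-0.05, adjusted p = 0.897), which are broad epiblast genes, did not pass.

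The Hox genes, which lie in 4 clusters and are switched on in order from one end of each cluster, were higher in posterior epiblast across the clusters. Of 38 listed, 36 had a named probe and 20 were detected on at least 3 arrays, of which 16 rose and none fell. The median change was 1.91, or 1.64 with the 7 genes that no anterior array detected at their bound. By cluster, 3 of 5 genes rose in Hoxa, 7 of 7 in Hoxb, 2 of 3 in Hoxc and 4 of 5 in Hoxd. The 16 Hox genes with a named probe that were not detected on 3 arrays are not in these counts, and a Hox gene that is off anteriorly entered the test through its posterior arrays. Over all settings the median of the Hox list lay between 0.47 and 2.06.

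Hoxb1, an early gene of the 3′ end that responds to retinoic acid, had 10.75, 10.92 and 10.77 in posterior arrays, against 6.97, 7.44 and 7.45 in anterior arrays (change 3.53, SE 0.16, adjusted p = 3.21e-06). Hoxd9, of the 5′ part of its cluster, had 8.34, 8.20 and 8.45 in posterior arrays, against 4.64, 4.67 and 5.4 in anterior arrays, with 1 of 3 anterior arrays detecting it (change 3.43, SE 0.21, adjusted p = 1.59e-05). Hoxa5 had 7.99, 7.79 and 7.73 in posterior arrays and was detected on no anterior array (4.35, 4.48 and 4.66), which made it at least 7.13-fold higher (adjusted p = 3e-06). Genes from the 3′ end to the 5′ part of the clusters were therefore among the larger differences.

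Hoxd4, with the printed Cdx/Hox-type sites, was at least 4.05-fold higher (adjusted p = 3.65e-05), Hoxc6 at least 3.76-fold, Hoxd8 at least 3.34-fold and Hoxc9 at least 2.54-fold. Hoxa2 rose by 2.46, Hoxb7 by 2.15, Hoxb6 by 1.98 and Hoxb2 by 1.53, all with an adjusted p of 0.00024 or less. Smaller differences were found at Hoxb4 (1.32, adjusted p = 0.0116) and Hoxb5 (0.89, adjusted p = 0.00988), at Hoxd10 (at least 1.57-fold, adjusted p = 0.00083) and at Hoxb3 (at least 1.27-fold, adjusted p = 0.00679). Hoxd1 (0.64, adjusted p = 0.103), Hoxa4 (0.35, adjusted p = 0.403), Hoxc13 (0.18, adjusted p = 0.453) and Hoxa13 (-0.03, adjusted p = 0.93) did not pass. The 2 genes of paralogue group 13, the last to be activated, thus had no difference past the threshold.

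**Figure D3:**
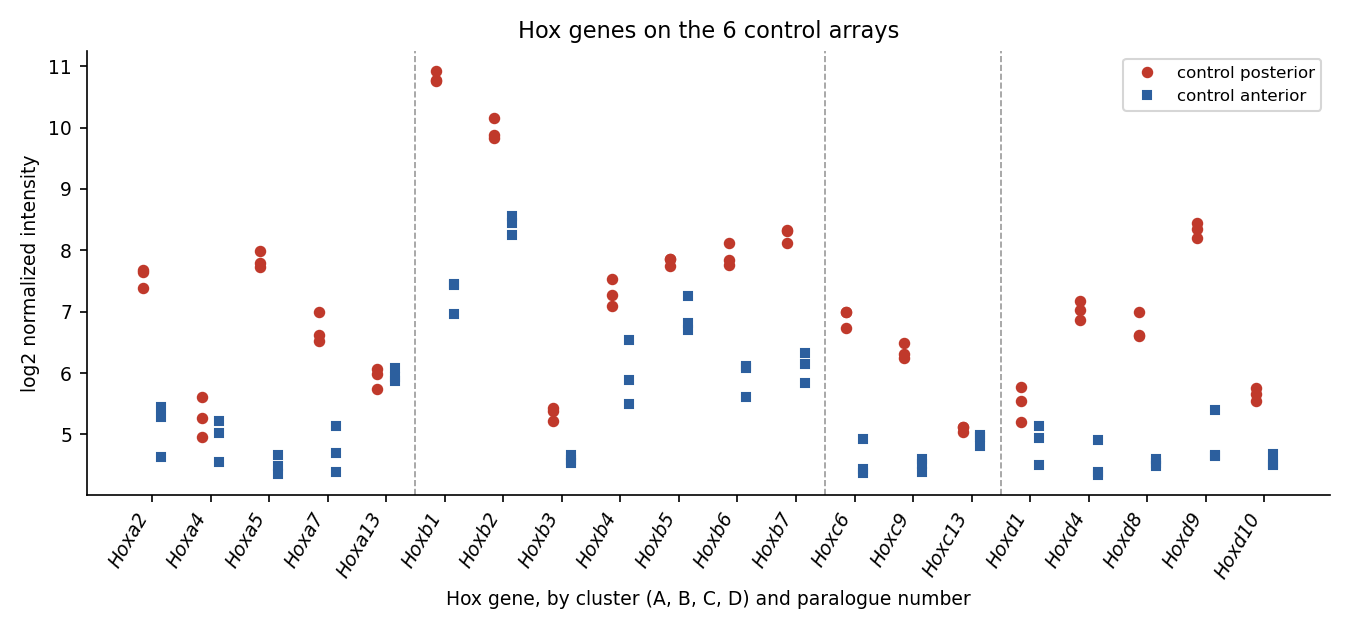
Log2 normalized intensity (y axis) of the 20 Hox genes tested, ordered by cluster and paralogue number, with each control posterior array as a red circle and each control anterior array as a blue square to its right. In 16 genes all posterior arrays lie above all anterior arrays past the threshold, while Hoxa4 and Hoxa13 overlap.

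Paraxial mesoderm, the tissue that forms the somites, was represented mainly by genes of its undivided, presomitic part. Of 13 genes tested 8 rose, 1 fell and 4 missed the threshold (median 1.27). Tbx6, a T-box factor that commits cells to paraxial mesoderm, had 10.91, 10.87 and 10.88 in posterior arrays, against 6.82, 6.89 and 6.91 in anterior arrays (change 4.01, SE 0.12, adjusted p = 5.36e-07). Dll1, a Notch ligand of presomitic mesoderm and a Tbx6 target, had 9.24, 9.86 and 9.42 in posterior arrays, against 6.44, 6.44 and 6.34 in anterior arrays (change 3.10, SE 0.17, adjusted p = 9.22e-06). Meox1, a homeobox gene of somites, rose by 2.67 (SE 0.32, adjusted p = 0.000968) and Dll3, another Notch ligand, by 1.27 (SE 0.18, adjusted p = 0.00256). Ripply1 and Ripply2, related transcriptional repressors that act in somite formation, differed in direction. Ripply2 rose by 1.04 (adjusted p = 0.034), and Ripply1 was at least 1.42-fold lower (adjusted p = 0.00429), with no posterior array detecting it. Tcf15, a bHLH factor of somites, varied widely, with 8.11, 6.90 and 8.58 in posterior arrays, against 8.04, 8.59 and 8.60 in anterior arrays (adjusted p = 0.461).

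Genes of the allantois, the outgrowth at the posterior end that forms part of the umbilical cord, and of lateral mesoderm were mixed: of 20 tested 7 rose, 3 fell and 10 were not past the threshold (median 0.35). Tbx4, a T-box factor of the allantois, had 8.61, 8.61 and 8.53 in posterior arrays, against 4.65, 4.56 and 7.01 in anterior arrays. Anterior array 3 thus stood 2 or more above the other anterior arrays and was the one that detected the gene, and the change of 3.17 had an SE of 0.54 (adjusted p = 0.00771). The call of Tbx4 was lost with trended and robust variances (adjusted p = 0.0861). Foxf1, a forkhead factor of lateral mesoderm, rose by 1.25 (SE 0.16) and Bmp4 by 0.96 (SE 0.14). Twist2, a bHLH factor of mesenchyme, rose by 1.73 (SE 0.15, adjusted p = 0.000177). Tgfbi, a secreted matrix protein gene, fell by 1.42 (adjusted p = 0.000319) and Snai2 by 1.22 (adjusted p = 0.0165, or 0.0663 without anterior array 3). Without anterior array 3, 1 gene of the list fell. Hand1 (0.51, adjusted p = 0.0604), Isl1 (0.22) and Gata6 (-0.49) did not pass. In bulk tissue, fewer cells of a type and less RNA per cell cannot be told apart.

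FGF ligands and the genes that report ERK signalling were mostly posterior. Of 19 tested 12 rose, 1 fell and 6 missed the threshold (median 0.87), and 7 rose without anterior array 2. Fgf17 was detected on every posterior array (7.90, 8.30 and 8.19) and on no anterior array (4.59, 4.72 and 4.91) and was at least 8.75-fold higher (adjusted p = 3.21e-06). Fgf8, the ligand that cells need to leave the streak, had 9.08, 9.38 and 9.47 in posterior arrays, against 7.11, 7.21 and 7.27 in anterior arrays (change 2.12, SE 0.14, adjusted p = 2.59e-05). Both ligands of the same FGF subfamily were therefore well separated between regions. Etv4, an ETS factor induced by FGF signalling, rose by 2.22 (SE 0.18, adjusted p = 8.97e-05), and the feedback inhibitors Il17rd and Dusp6 rose by 1.51 and 0.99. Fgfr2 was the receptor that fell, with 10.23, 10.27 and 10.46 in posterior arrays, against 11.60, 11.77 and 11.53 in anterior arrays (change -1.31, SE 0.13, adjusted p = 0.00035), while Fgfr1 (-0.12) and Fgfr3 (-0.62, adjusted p = 0.11) did not pass.

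Of 12 Notch pathway genes tested 5 rose, none fell and 7 were not past the threshold (median 0.33). Besides Dll1 and Dll3, the genes that rose were Hes3 (1.70), a repressor downstream of Notch or of neural progenitors, Nrarp (1.30), a feedback regulator, and the receptor Notch1 (1.1). Of 12 retinoic acid genes 3 rose, 1 fell and 8 did not pass. Aldh1a2, the enzyme that makes retinoic acid in mesoderm, had 8.81, 8.57 and 8.84 in posterior arrays, against 5.4, 5.97 and 6.15 in anterior arrays (change 2.90, SE 0.20, adjusted p = 2.87e-05). Cyp26a1, the enzyme that degrades it, had 8.50, 7.83 and 8.10 in posterior arrays, against 9.39, 9.55 and 9.57 in anterior arrays (change -1.36, SE 0.17, adjusted p = 0.00154; its other probe -0.57). The synthetic and the degrading enzyme thus changed in opposite directions, although Cyp26a1 was still at 7.83 or more in posterior arrays.

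BMP and Nodal genes showed no common direction, with 4 higher, 4 lower and 12 not past of 20 tested (median -0.07). Bmp4 (0.96), its target Msx1 (0.84), Nodal and Lefty2 rose. Id1 (-0.57), Id2 (-0.89) and Id4 (-0.58), which BMP signalling induces in many cells, fell together with Cer1, and the count of falls was 1 without posterior array 1 and 2 without posterior array 2 or anterior array 1 or 3. Chrd (0.16) and Nog (-0.08), secreted BMP antagonists of the node, did not pass.

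At the anterior end, genes of the forebrain and anterior neural plate fell in posterior epiblast. Of 26 listed 12 were tested: 8 fell, none rose and 4 missed the threshold (median -1.15, or -0.94 with Hesx1 at its bound). Another 12 had a named probe but were not detected on 3 arrays, and a gene that is off posteriorly entered through its anterior arrays. Over all settings the median of the list lay between -1.29 and -0.22. Otx2, a homeobox gene required for the head, had 9.05, 8.68 and 8.88 in posterior arrays, against 11.64, 11.68 and 11.46 in anterior arrays (change -2.73, SE 0.14, adjusted p = 7.12e-06). Lhx5, which codes for a LIM homeodomain factor, had 4.42, 4.92 and 5.33 in posterior arrays, with 1 of 3 detecting it, against 7.18, 7.27 and 7.28 in anterior arrays (change -2.35, SE 0.21, adjusted p = 0.000161). Pou3f1, a POU factor of neural progenitors, fell by 2.10 (SE 0.17, adjusted p = 9.37e-05) and Irx3 by 1.55 (SE 0.16). Hesx1, a homeobox gene of the anterior forebrain and the endoderm beneath it, was detected on no posterior array (4.41, 4.73 and 4.49), against 5.74, 5.43 and 6.47 in anterior arrays, so that it was at least 1.89-fold lower (adjusted p = 0.0109). Tcf7l1, a repressor of Wnt targets, fell by 0.82 (adjusted p = 0.00407). Six3, Rax, Pax6 and other later forebrain genes were not among the genes detected on 3 arrays.

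Sox21 and Sox2, SoxB factors of neural cells, fell by 1.92 (SE 0.15; other probe -0.87) and 1.24 (SE 0.22; other probe -1.19), while Sox3 changed by -0.01 (adjusted p = 0.989). Of the 16 early neural genes tested 3 fell, 1 rose and 12 did not pass, while 3.32% of all genes fell and 3.62% rose. The midbrain and hindbrain list split, with 5 of 12 higher and 3 lower. Gbx2, a homeobox gene that marks the anterior hindbrain and the posterior epiblast, had 13.19, 13.55 and 13.18 in posterior arrays, against 10.62, 11.28 and 11.05 in anterior arrays (change 2.32, SE 0.19, adjusted p = 8.74e-05). Gbx2 and Otx2, known to repress each other at the boundary of midbrain and hindbrain, thus changed in opposite directions. Fgf15 rose by 1.77 (SE 0.14), and Irx1 and Irx5 fell by 1.26 and 1.22.

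Genes of the anterior visceral endoderm and the prechordal plate, the signalling tissues beneath the head, had the largest share of falls among the 35 lists: 10 of 13 tested fell, none rose and 3 were not past the threshold (median -1.33, or -1.28 with Hesx1 at its bound). Besides Shisa2, Cer1, Sfrp1, Otx2 and Fzd5, these were Shh, Gsc, Hhex, Hesx1 and Dkk1. Shisa2, Cer1, Sfrp1 and Dkk1 also count among the Wnt antagonists, Fzd5 among the Wnt receptors, and Otx2 and Hesx1 among the forebrain genes. Because members were chosen with earlier results known, the rank among lists is a description and not a test. Shh, a morphogen of axial mesoderm, fell by 1.67 (SE 0.27, adjusted p = 0.00625; other probe -0.73). Gsc, the goosecoid homeobox gene, had 5.66, 5.33 and 5.47 in posterior arrays, against 6.65, 6.71 and 6.96 in anterior arrays (change -1.28, SE 0.14, adjusted p = 0.000687). Hhex, a homeobox gene of anterior endoderm, fell by 1.19 (SE 0.14, adjusted p = 0.0011). Several of these genes are expressed in the neural plate as well as in the tissue under it.

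The definitive endoderm and foregut list shared Cer1, Gsc, Hhex and Otx2 with it, and of 14 tested 5 fell and none rose. Node and notochord genes had 1 higher (Nodal), 1 lower (Shh) and 15 not past of 17, among them the node genes Noto (0.07, adjusted p = 0.894) and Foxj1 (0.42, adjusted p = 0.315). Over all genes 3.62% rose and 3.32% fell.

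Cardiac and cranial mesoderm genes were higher at the anterior end, where the heart field lies. Of 14 tested 8 fell, 2 rose and 4 missed the threshold (median -0.85, or -0.77 with 2 genes at their bound), and 5 fell without anterior array 2. Of those that rose, 1 was left without posterior array 1, 2 or 3 or anterior array 1 or 2. Myl7, an atrial myosin light chain, had 7.51, 6.77 and 7.45 in posterior arrays, against 9.81, 9.86 and 10.30 in anterior arrays (change -2.75, SE 0.22, adjusted p = 8.35e-05). Mef2c, a factor of cardiac mesoderm, fell by 1.15 (SE 0.14, adjusted p = 0.00108; other probe -0.45). Nkx2-5, a homeobox gene of the heart field, differed by at least 1.86-fold (adjusted p = 0.0021) and Alx1, of cranial mesenchyme, by at least 1.54-fold (adjusted p = 0.00228), both lower in posterior epiblast, where no array detected them. Tbx1, a T-box gene needed in the pharynx, fell by 0.96 (adjusted p = 0.00682). It lost its call in 3 of 19 alternatives, among them the fit with all 12 arrays (adjusted p up to 0.0852). Myl2, the ventricular myosin light chain, went the other way with 7.97, 7.34 and 7.91 in posterior arrays, against 5.55, 6.26 and 6.71 in anterior arrays (change 1.57, adjusted p = 0.0106). Myl4 fell by 1.18 (adjusted p = 0.0284), a call lost without posterior array 1 or 2 or anterior array 2 (adjusted p between 0.0572 and 0.098). In all it was lost in 6 of 19 alternatives, among them no filter on detection and the fit with all 12 arrays.

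Genes of pluripotency and of extraembryonic ectoderm overlapped in what fell. Of 23 pluripotency genes 7 fell, 2 rose and 14 were not past the threshold (median -0.31). Dppa4, a chromatin protein gene of pluripotent cells, had 5.02, 5.78 and 4.57 in posterior arrays, with 2 of 3 detecting it, against 7.78, 8.55 and 7.65 in anterior arrays (change -2.87, SE 0.32, adjusted p = 0.000643). Dnmt3l, a cofactor of DNA methyltransferases, had 6.66, 6.58 and 6.73 in posterior arrays, against 9.12, 9.54 and 9.09 in anterior arrays (change -2.60, SE 0.15, adjusted p = 1.45e-05). Esrrb, an orphan nuclear receptor of trophoblast stem cells and naive pluripotency, fell by 2.26 (SE 0.22) and was detected on 1 of 3 posterior arrays. Utf1 fell by 1.72 (SE 0.30, adjusted p = 0.00883) and the amino acid transporter gene Slc7a3 by 1.44 (SE 0.15). Pou5f1, the gene of Oct4, had 12.76, 12.55 and 12.73 in posterior arrays, against 11.93, 11.88 and 11.94 in anterior arrays, and rose by 0.76 (SE 0.12, adjusted p = 0.00564). Nanog changed by 0.19 (adjusted p = 0.459), and Fgf4 was at least 1.14-fold higher (adjusted p = 0.0213, but between 0.0579 and 0.0663 without anterior array 1, 2 or 3), so that 1 gene of the list rose without any one anterior array.

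Of 18 extraembryonic ectoderm and trophoblast genes 6 fell, 2 rose (Cdx2 and the imprinted gene Phlda2, 0.78) and 10 did not pass. Elf5, an ETS factor of trophoblast stem cells, was detected on no posterior array (4.42, 4.36 and 4.43), against 7.54, 7.62 and 7.13 in anterior arrays, which made it at least 5.53-fold lower (adjusted p = 5.93e-06), though its other probe changed by only -0.81. No posterior array detected Rhox9 (4.54, 4.34 and 4.49), a reproductive homeobox gene, against 5.41, 5.90 and 5.77 in anterior arrays, a difference of at least 1.66-fold (adjusted p = 0.00129). With Esrrb, Wnt7b, Sox21 and Fgfr2 these were the 6 that fell. The list's summed level on the linear scale was 31565 to 34043 in posterior and 20675 to 21830 in anterior arrays, a sum that includes Cdx2 and Phlda2, the 2 members that rose. The part of extraembryonic ectoderm in the anterior values was not tested.

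Genes of the visceral endoderm, the layer around the epiblast, were bright in both regions although the labels name the tissue epiblast. Ttr, the transthyretin gene, had 13.72, 13.56 and 13.83 in posterior arrays, against 14.06, 13.97 and 14.17 in anterior arrays (change -0.36, adjusted p = 0.146), and Apoa1 had 13.76, 13.81 and 13.73 in posterior arrays, against 13.89, 13.82 and 13.96 in anterior arrays. Of 24 tested, 23 did not pass, while 6.94% of all genes passed in either direction. Lrp2 fell by 0.60 (adjusted p = 0.0245), while its other probe changed by 0.30. Lrp2 lost its call without posterior array 1 or 3 or anterior array 1 or 2 (adjusted p between 0.0611 and 0.099). The summed linear level of the list was 108946 to 112724 in posterior and 123531 to 131622 in anterior arrays, which did not overlap. It moves in the direction of the anterior endoderm genes above, and its part in them was not tested. The summed levels of the streak list, 28243 to 32247 in posterior and 11844 to 13286 in anterior arrays, and of the forebrain list, 5387 to 5839 in posterior and 13639 to 15688 in anterior arrays, lay in the direction of the labels.

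Blood and endothelial genes had few calls, a count to be read beside the 6.94% of all genes that passed in either direction. Of 20 tested 19 did not pass and Tek, an endothelial receptor, fell by 0.98 (adjusted p = 0.00383), with a median of -0.15. Over all settings 0 to 2 genes of the list rose and 1 to 4 fell. The embryonic globin gene Hbb-bh1 had 6.67, 7.15 and 8.64 in posterior arrays, against 6.28, 6.73 and 8.63 in anterior arrays, so that array 3 was the highest in both regions (change 0.27, adjusted p = 0.851). Etv2 (-0.14, adjusted p = 0.655), which starts blood and vessel formation, and Tal1 (-0.42, adjusted p = 0.211) did not pass.

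Of 11 genes of primordial germ cells, which arise at the posterior end, 5 rose, 1 (Sox2) fell and 5 did not pass. Alpl, the alkaline phosphatase gene used to stain these cells, rose by 1.03 (SE 0.13, adjusted p = 0.00162). Dppa3 was at least 1.23-fold higher (adjusted p = 0.00601) and Ddx4 at least 1.30-fold higher (adjusted p = 0.0316), both undetected on every anterior array. Dppa3 lost its call in 6 of 18 alternatives, among them the authors' log2 values and no background correction (adjusted p up to 0.493). Between 0 and 5 genes of the list rose over all settings. The remaining genes that rose were Pou5f1 and Ifitm1, which are not confined to germ cells, and 3 rose without posterior array 1 or 3 or anterior array 2. Of 12 surface ectoderm and amnion genes 4 rose and 5 fell, led by the secreted binding protein gene Igfbp3 (1.55, adjusted p = 0.0029) on the posterior side and by Eya1 (at least 1.64-fold lower, adjusted p = 0.00281) on the anterior side. Between 1 and 3 of these genes fell when any 1 array was left out, and 2 rose without posterior array 1 or 3 or anterior array 2. Eya1 lost its call in 3 of 19 alternatives, among them the authors' log2 values (adjusted p up to 0.125). Sox9, a neural crest and border gene, fell by 1.21 (adjusted p = 0.000563), and of 7 such genes 3 fell and 1 rose (2 without anterior array 3).

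Among genes of epithelial to mesenchymal transition 5 of 25 rose, 3 fell and 17 did not pass (median -0.02), and 3 rose without posterior array 2 and 1 fell without anterior array 3. Fn1, the fibronectin gene, rose by 0.99 (adjusted p = 0.0118, or 0.0505 without posterior array 2), with its other probes between 0.35 and 0.76, and the tight junction gene Cldn4 fell by 1.38 (SE 0.14, adjusted p = 0.000311). Cdh1, the E-cadherin gene, had 10.40, 9.98 and 10.21 in posterior arrays, against 10.02, 10.08 and 10.54 in anterior arrays (change -0.02, adjusted p = 0.965). Of 25 axon guidance genes 6 rose and 3 fell, or 1 fell without posterior array 2. Epha1, an ephrin receptor of the posterior epiblast, had 10.95, 10.51 and 10.52 in posterior arrays, against 8.82, 8.67 and 8.70 in anterior arrays (change 1.93, SE 0.15, adjusted p = 7.25e-05), and its ligand gene Efna1 rose by 1.19 (adjusted p = 0.00313). Ephb1 fell by 1.20 (adjusted p = 0.000357). Of 23 matrix genes 1 rose (0 without posterior array 2 and 2 without posterior array 3) and 3 fell, among them Col2a1, a collagen of notochord and head mesenchyme, by 1.71 (SE 0.18, adjusted p = 0.000453).

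For lists of general cellular genes the counts are to be read beside the 6.94% of all genes that passed in either direction. None of 14 housekeeping and ribosomal protein genes passed, with a median of 0.09. Of 28 cell cycle genes 1 rose (Cdkn1a, 1.06) and 2 fell (Cdkn1c, by 0.74, and Mcm7, by 0.58), and 25 did not pass. Of these, Cdkn1c (adjusted p = 0.00428) kept its call with any array left out, while Cdkn1a lost it without posterior array 1 or 2 or anterior array 1 or 2 (adjusted p between 0.0974 and 0.126) and Mcm7 without any 1 of the 6 arrays (adjusted p between 0.0709 and 0.129). Of 17 glycolysis and hypoxia genes 15 did not pass and Egln3, an oxygen-sensing prolyl hydroxylase, rose by 0.91 (adjusted p = 0.00293). Of 18 immediate-early and stress genes 16 did not pass and Egr1, an early gene of ERK signalling, rose by 1.26 (adjusted p = 0.00657). The single fall of the glycolysis list, Ankrd37, was lost without posterior array 1, 2 or 3 or anterior array 1 or 3, and that of the stress list, Gadd45b, without posterior array 1 or 3. None of 4 X-inactivation and Y-linked genes passed between regions, but they varied widely between arrays of one region. Xist, the RNA of the inactive X chromosome, had 9.49, 4.52 and 8.25 in posterior arrays, against 9.75, 4.41 and 8.42 in anterior arrays, so that array 2 was low in both regions.

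**Figure D4:**
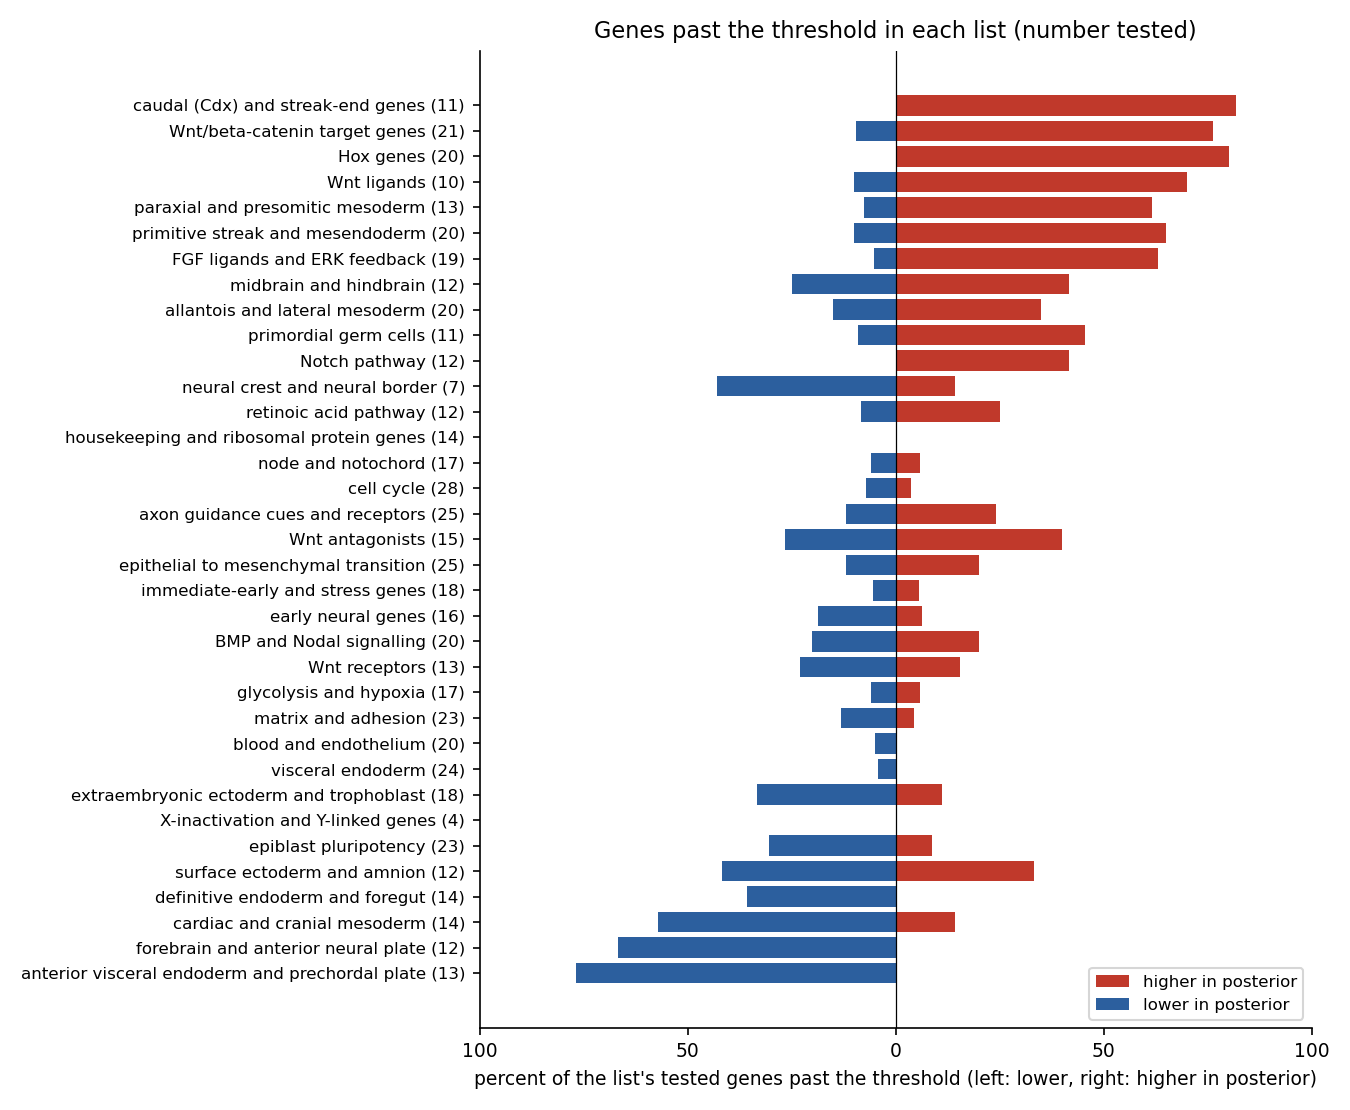
Percent of the tested genes of each of 35 lists that passed the threshold, with genes higher in posterior as red bars to the right and genes lower in posterior as blue bars to the left; the number tested is in parentheses and lists are ordered by median change. Over all genes 3.62% rose and 3.32% fell. Caudal, Wnt target and Hox genes (medians 3.22, 2.00 and 1.91) lie at the top and the anterior visceral endoderm and forebrain lists (medians -1.33 and -1.15) at the bottom.

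Several of the largest differences lay outside the lists. Chst7, a sulfotransferase of glycosaminoglycan chains, had 10.35, 10.54 and 10.20 in posterior arrays, against 7.29, 7.33 and 7.39 in anterior arrays (change 3.03, SE 0.13, adjusted p = 3.21e-06). Gal, the neuropeptide galanin, rose by 3.35 (SE 0.35, adjusted p = 0.000418), with anterior arrays spread between 6.07 and 7.73. Nt5e, the ecto-enzyme that makes adenosine, was at least 5.58-fold higher (adjusted p = 8.19e-06) and Slpi, a secreted protease inhibitor, at least 4.51-fold higher (adjusted p = 3.73e-05), neither being detected on an anterior array. Rnf213, a ubiquitin ligase, rose by 2.87 (SE 0.13), Rtl8c, a gene derived from a retrotransposon, by 2.63 (SE 0.16), the amino acid transporter gene Slc38a8 by 2.56 (SE 0.29) and the G protein subunit gene Gna14 by 2.54 (SE 0.18). Rtl8c has closely similar copies whose signal the probe may share.

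On the anterior side Foxd4, a forkhead gene of neural ectoderm, had 8.23, 7.93 and 8.15 in posterior arrays, against 10.55, 10.66 and 10.37 in anterior arrays (change -2.42, SE 0.14, adjusted p = 1.43e-05). Srd5a2, a steroid reductase that no posterior array detected, had a fold difference of at least 3.5 in the same direction (adjusted p = 2.41e-05). Exosc2, an RNA exosome subunit, fell by 2.32 (SE 0.15) by its brightest probe but changed by -0.24 by its other probe. Tal2, a bHLH factor of the midbrain, fell by 2.13 (SE 0.20), Fam107a by 1.97 (SE 0.25), the pepsinogen gene Pga5 by 1.90 (SE 0.14), Cadps2, of vesicle release, by 1.82 (SE 0.16), and the fatty acid binding protein gene Fabp3 by 1.77 (SE 0.19). All had an adjusted p of 0.00151 or less.

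The same regions of embryos labelled knockout gave a separate set of arrays. The single Dkk1 probe did not separate the genotypes in anterior epiblast, where it was detected in control arrays: it had 6.0, 6.27 and 6.17 in anterior arrays labelled knockout, against 6.1, 5.78 and 6.06 in anterior control arrays. In posterior arrays it had 4.74, 4.31 and 4.46 in those labelled knockout, against 5.05, 5.12 and 4.64 in control arrays. The sources used here do not say which bases were deleted or whether the probe lies in them, so this probe does not check the genotype labels, and the comparisons with control arrays below rest on the labels alone. Fitted with all 12 arrays, posterior against anterior epiblast labelled knockout passed the threshold at 869 of the 10396 genes (8.36%). Of the 721 genes called in control arrays, 692 (96.0%) had the same sign in arrays labelled knockout, against 69.2% of all genes, and 29 had the opposite sign. In knockout arrays 387 of the 721 were called with the same sign and 0 with the opposite sign. The median change of the genes that rose in control arrays was 0.746 in arrays labelled knockout and 0.905 in control arrays, and that of the genes that fell was -0.608 in arrays labelled knockout and -0.771 in control arrays. These genes were chosen in the control arrays, so the larger control medians are a description and not a test. Across all genes the changes in both genotypes correlated at 0.709 (Pearson), and genes are not independent replicates.

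**Figure D5:**
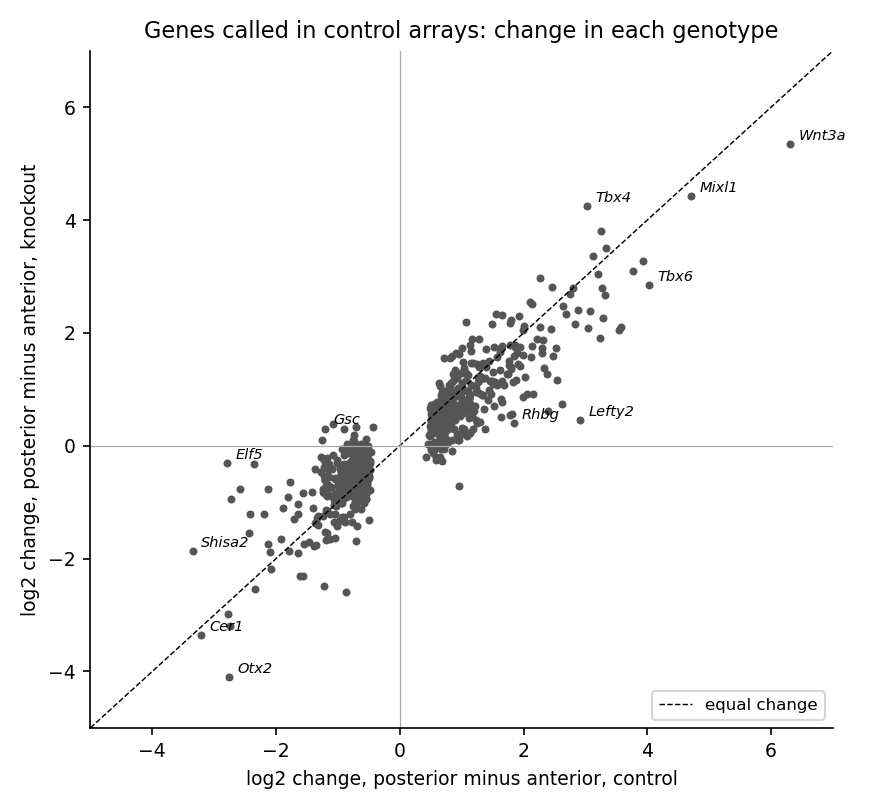
Each point is 1 of the 721 genes called in control arrays, with the log2 change, posterior minus anterior, in arrays labelled knockout on the y axis and in control arrays on the x axis, from the fit with all 12 arrays. The dashed line marks equal change; 692 points have the same sign in both genotypes, Otx2 (-4.10 in arrays labelled knockout) lies below the line, and Lefty2 and Rhbg (0.46 and 0.40 in arrays labelled knockout) lie far below it.

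Among the leading genes, Wnt3a changed by 5.34 in arrays labelled knockout and 6.30 in control arrays, and Tbx6 by 2.85 in arrays labelled knockout and 4.02 in control arrays. Fst changed by 2.11 in arrays labelled knockout and 3.57 in control arrays. The difference between genotypes did not pass for any of them (adjusted p of 0.714, 0.209 and 0.139). Gsc was lower in posterior than anterior control arrays, but changed by 0.30 in arrays labelled knockout (difference 1.52, SE 0.27, adjusted p = 0.139). In the fit of the difference, knockout change minus control change, 638 genes had an unadjusted p under 0.05 and 1 gene of 10396 (0.00962%) passed after adjustment, the ammonium transporter gene Rhbg. Rhbg had 6.58, 6.44 and 6.58 in posterior and 6.23, 6.07 and 6.09 in anterior arrays labelled knockout. In control arrays it had 6.58, 6.66 and 6.51 in posterior and 4.67, 4.85 and 4.70 in anterior arrays, 1 of which detected it. The knockout change minus the control change was -1.44 (SE 0.16, adjusted p = 0.00833), and it was not past the threshold without control posterior array 1 (adjusted p = 0.0522) or 2 (adjusted p = 0.0579), or with the replicate number as a block (adjusted p = 0.193).

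Genes that mark the sex of the embryos varied between arrays of both genotypes. Fitted with 12 arrays, Xist lay between 9.06 and 10.22 in the 6 arrays labelled knockout, and between 4.36 and 9.47 in the 6 control arrays. The Y-linked gene Eif2s3y had 8.04, 7.6 and 4.32 in posterior and 8.57, 8.83 and 4.37 in anterior arrays labelled knockout, so that array 3 was low in both regions, against 7.58 to 9.26 in the 6 control arrays. The part of sex makeup in the comparisons of the genotypes was not tested.

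Elf5, Wnt7b, Esrrb and Dnmt3l had smaller region changes in arrays labelled knockout (-0.30, -0.33, -0.76 and -0.77), with adjusted p-values of the difference between 0.213 and 0.723. In each of the 4, array 3 of anterior epiblast labelled knockout was the brightest of the 6 with that label: Elf5 had 4.69, 4.32 and 6.40 in anterior arrays labelled knockout, against 7.25, 7.33 and 6.85 in anterior control arrays. Without that array the difference passed for Elf5 and Dnmt3l, as described with the alternatives.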

How the data were processed

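Total RNA of 12 samples was measured on Illumina bead arrays after biotin labelling, per the labels' protocols. The deposited table holds 1 bead intensity per probe and array, not normalized, per the file headers. Beside it the authors deposited a detection p-value per probe, made with GenomeStudio per the submitters' processing notes. The authors' series matrix holds log2 values of 33557 probes and served as an alternative; the labels do not state how they were normalized.

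The 6 control arrays were background-corrected on detection p-values and quantile-normalized with neqc (offset 16) and fitted with lmFit and eBayes (limma 3.58.1, R 4.3.3; 4 residual and 5.11 prior degrees of freedom). Calls used Benjamini-Hochberg adjusted p under 0.05 over 10396 genes. The difference between genotypes came from 12 arrays fitted with 4 group means. Probes were named through gene number, accession or file name against RefSeq (GRCm38.p6), which gave 30058 probes 1 name and left 16179 unnamed or ambiguous.

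The members and lists were chosen with earlier results of these data known. Named genes are Dkk1, the 15 largest rises and falls, up to 5 called genes and the first 3 genes of each list, and the 8 largest rises and falls outside the lists. Other list members are named for their role, with their values seen. Alternatives changed background, offset, scaling, filter, probe choice, variance model, weights, block and arrays.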

Additional observations from a re-analysis of the deposited data

Results flagged for a closer look

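Rhbg, an ammonium transporter gene, had a different change between regions in the 2 genotypes, by limma's test of that difference over 10396 genes. The change, posterior minus anterior, was 0.40 (SE 0.11) in arrays labelled knockout and 1.84 in control arrays, and the difference was -1.44 (SE 0.16, adjusted p = 0.00833). All 3 anterior arrays labelled knockout (6.23, 6.07 and 6.09) lay above all 3 anterior control arrays (4.67, 4.85 and 4.70), while posterior arrays had 6.58, 6.44 and 6.58 in epiblast labelled knockout and 6.58, 6.66 and 6.51 in control epiblast. The difference passed in 13 of 17 alternatives. It did not pass with an offset of 50 (-0.81, adjusted p = 0.063), with the replicate block (-1.44, adjusted p = 0.193), without control posterior array 1 (adjusted p = 0.0522) or without control posterior array 2 (adjusted p = 0.0579).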

How the results depend on the processing

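Of 171 named genes 134 were past the threshold, and 94 of these kept their call in every alternative setting in which they were tested (18 or 19 settings). None turned its sign, and 15 lost the call only under median scaling over all probes. Some genes given above as losing a call without an array also lost it under other settings. Of 19 alternatives the call was lost in 10 for Mcm7, 9 for Ankrd37, 8 for Wnt2 and Cdkn1a, and 7 for Ifitm1 and Lrp2. The 721 calls (376 higher, 345 lower) became 249 (131 higher, 118 lower) under median scaling over all probes, which moved the median of all genes to -0.09, and 1386 (664 higher, 722 lower) with array weights. Median scaling over probes detected on all arrays left 204 lower of 504, with 59.5% higher. Leaving out 1 array gave 454 to 581 calls, 245 to 313 higher and 205 to 268 lower. All detected probes, a setting chosen after seeing the data, gave 949 calls. The difference between genotypes, 1 gene, had 11 calls with trended variances, 24 with array weights, 0 with the replicate block and 0 to 4 with 1 array left out. Without array 3 of anterior epiblast labelled knockout it was past the threshold at Dnmt3l, Elf5, Rhbg and Tmem114.

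With the replicate block 810 genes were called in control arrays, among them 674 of the 721. Same-numbered arrays deviated together at correlations of 0.0588, 0.223 and 0.218. Every posterior array correlated best with its own number, most weakly in the first pair. The labels do not say what the numbers share, so the block was kept as an alternative. The p-values of the main fit therefore ignore any pairing. Xist and Eif2s3y also followed the numbers across regions: control array 2 was low for Xist, and array 3 labelled knockout was low for Eif2s3y, in both regions. The labels do not say that same-numbered arrays share embryos, and these values hint that they do. The block removed the call of Rhbg.

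The genes whose change turned sign were all far from the threshold, and the causes were not tested. With 1 array left out the change ranged from -0.0736 to 0.1318 for Afp, -0.0863 to 0.117 for Ccna2, -0.0739 to 0.3276 for Col1a1, -0.0887 to 0.2969 for En1, -0.1764 to 0.0099 for Fzd3, -0.1242 to 0.2115 for Noto, -0.0597 to 0.0444 for Slc2a3, -0.1405 to 0.08 for Sox3, -0.2175 to 0.0183 for Tfap2c and -1.6365 to 1.3211 for Xist. Median scaling over all probes gave -0.1192 for Afp and -0.0781 for Ccna2, and cyclic loess gave -0.0018 for Afp and 0.0398 for Sox3. Median scaling over detected probes gave 0.0492 for Sox3. Array weights gave -0.1898 for En1, -0.0985 for Noto and 2.4576 for Xist, and the mean of a gene's probes gave 0.3098 for Fzd3 and 0.0072 for Xist.

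The files give no slide, so slide as a block was not run. Genes near background have only a bound on their fold. Of the called genes 194 have another detected probe, and for 19 of them it had the opposite sign.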
